A study of Mus musculus with 5 samples.

Results

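Promoter regions with an anti-RXRα peak in both wild-type (WT) libraries of mouse alveolar macrophages (AMs) are described here. Peaks of the lists WT A and WT G were merged where they overlapped by at least 1 bp, and merged regions with a peak of both lists were kept. Of 3423 such regions, 370 (10.8%, 95% exact binomial interval 9.79 to 11.9) had their midpoint between 1 kb upstream and 100 bp downstream of a transcription start site of the GENCODE M21 basic set on mm10 (GRCm38), and these are the promoter regions of this text. The other 3053 are called the other shared regions.

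The cells were AMs sorted by flow cytometry from bronchoalveolar lavage of mice in which both Rxra and Rxrb carried floxed alleles (Rxrabfl/fl). WT mice had no Cre (CD11cCre-) and knockout (KO) mice carried it (CD11cCre+), so floxed alleles were common to both groups. The assay was HT-ChIPmentation, chromatin immunoprecipitation with an anti-RXRα antibody followed by tagmentation on the beads, with 2 WT libraries, 2 KO libraries (KO A and KO G) and 1 input from CD11cCre- mice. Cre under Cd11c control is active in other CD11c+ cells too, and the antibody was against RXRα, so the lists do not report on RXRβ. Nothing in the labels says that the libraries of a group came from separate animals, so a spread between them may be technical.

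RXRα is a nuclear receptor that binds DNA as a dimer, with itself or with partners such as the PPAR, LXR, RAR and VDR receptors. Each partner reads a copy of the half-site AGGTCA, and the number of bases between both copies differs between dimers. Repeats with 1 base between them (DR1) are known for RXR homodimers and for PPAR dimers, DR4 for LXR and DR5 for RAR. In AMs, PPARγ is a known factor of identity and lipid handling, since these cells clear surfactant lipids from the airspace.

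The sequences that carry the motif result are those of promoter regions in which the DR1 match was closest. Each is the 101 bp around the summit of the stronger WT peak, on the plus strand of GRCm38, with the DR1 in capitals. All 5 matches had 1 mismatch to a pair of AGGTCA copies. The match lay on the plus strand for Dtx4 and on the minus strand for Baz1b, Gm9408, 4930579G24Rik and Ggnbp2. The windows of Baz1b, Gm9408, Ggnbp2 and Dtx4 lay outside annotated transcripts at their summits, and that of 4930579G24Rik lay in an intron of Etfdh.
Baz1b: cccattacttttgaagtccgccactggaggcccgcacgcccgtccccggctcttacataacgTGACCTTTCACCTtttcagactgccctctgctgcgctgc
Gm9408: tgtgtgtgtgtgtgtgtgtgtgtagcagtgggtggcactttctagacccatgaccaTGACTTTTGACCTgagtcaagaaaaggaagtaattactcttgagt
4930579G24Rik: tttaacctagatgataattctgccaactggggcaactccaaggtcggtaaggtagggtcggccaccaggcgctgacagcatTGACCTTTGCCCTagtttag
Ggnbp2: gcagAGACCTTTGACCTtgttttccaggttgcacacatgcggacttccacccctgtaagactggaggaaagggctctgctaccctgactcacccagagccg
Dtx4: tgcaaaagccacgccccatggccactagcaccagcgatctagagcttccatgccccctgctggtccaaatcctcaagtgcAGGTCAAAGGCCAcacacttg

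The positions were chr5:135187024-135187124 for Baz1b, which encodes a chromatin remodelling subunit, chr3:136331283-136331383 for Gm9408, chr3:79628300-79628400 for 4930579G24Rik, chr11:84871177-84871277 for Ggnbp2 and chr19:12502145-12502245 for Dtx4, a ubiquitin ligase of the Notch pathway. Among matches with 2 mismatches, Acot2 (chr12:83987319-83987419) is shown because it is the DR1 among promoter regions of fatty acid oxidation genes, and Jdp2 (chr12:85598211-85598311), which encodes a repressor of the AP-1 family, because it was among the strongest with a DR1. Both summits are given in the same way.
Acot2: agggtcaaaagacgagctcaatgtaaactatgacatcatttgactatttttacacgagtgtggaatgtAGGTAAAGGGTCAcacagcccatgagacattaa
Jdp2: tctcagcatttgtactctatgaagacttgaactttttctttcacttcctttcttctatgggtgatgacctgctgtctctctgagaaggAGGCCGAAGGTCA

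A second set shows promoter regions that also had a peak in KO cells, which held no DR1. The window of Dgat1 (chr15:76512253-76512353, outside annotated transcripts) held 2 copies of the half-site, given in capitals, of which the first lay on the minus strand, and a DR5 with up to 2 mismatches that is not marked. The windows of Abi1 (chr2:23040571-23040671, outside annotated transcripts) and of Gm23935 (chr16:11144067-11144167, in an intron of Zc3h7a) held none.
Dgat1: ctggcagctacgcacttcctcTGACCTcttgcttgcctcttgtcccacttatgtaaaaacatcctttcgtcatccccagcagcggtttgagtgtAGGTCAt
Abi1: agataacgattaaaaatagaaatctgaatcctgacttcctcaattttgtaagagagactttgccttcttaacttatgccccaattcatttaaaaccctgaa
Gm23935: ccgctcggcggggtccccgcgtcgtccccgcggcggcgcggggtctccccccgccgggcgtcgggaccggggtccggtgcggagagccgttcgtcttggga

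For each peak the lists give a fold enrichment and a −log10 q, the authors' significance of that enrichment within the library. The fold is the ChIP pileup at the summit over the local background from the input, with the same constant added to both. These values order peaks within a list and depend on depth between lists. From them, the number of fragments at each summit was derived. At promoter regions it ranged from 11 to 68 in WT A (median 17) and from 6 to 36 in WT G (median 10.5). WT A had more fragments than WT G at 354 of the 370 regions (95.7%), the same number at 5 and fewer at 11, although WT G had the longer list (9766 peaks against 4751). The fold ran the other way: it was higher in WT G at 217 of the 370 regions (58.6%), with a median ratio of WT G to WT A of 1.06. The added constant lowers a fold more where the background is lower. The genome-wide background was 0.551 fragments in WT G and 1.25 in WT A.

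The strongest promoter regions included several of small RNA and other non-coding genes. Regions were ordered by the sum of their ranks by −log10 q in both WT lists, and the first was AC163635.1 (chr17:29434678-29436167), where the −log10 q reached 37.0 (WT A) and 38.1 (WT G), with no peak in either KO list. Next came Gm23935, an annotated miRNA (37.2 and 32.4 in the WT libraries, 44.0 and 33.3 in KO A and KO G). The third was the U1 snRNA gene Rnu1a1 (chr11:87422241-87423514), with 25.9 and 33.0 in the same order and a KO A peak of 5.04. Among its 4 values of −log10 q, Gm23935 was highest in KO A, but by fold it was highest in WT G (15.3), and by fragments in WT A (68, against 53 in KO A). Its window was 82.2% GC, against a median of 47.5% in the 370 regions.

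Protein-coding genes followed. B4galnt1 (chr10:127164322-127165196), which encodes a glycosyltransferase of ganglioside synthesis, reached a −log10 q of 25.9 (WT A) and 31.3 (WT G). Ltc4s (chr11:50238359-50239799), the synthase of leukotriene C4, had 29.8 and 24.8, and 7.4 in KO G. Rbpms, an RNA-binding protein gene, had 37.0 and 23.3, and Eapp had 38 fragments at its summit in WT A and 21 in WT G, with no KO peak at either. Slc15a3, a lysosomal peptide and histidine transporter gene (chr19:10841638-10843025), had 25.9 and 20.3, and 7.47 in KO G. Atxn2, another RNA-binding protein gene, had 19.4 and 15.9 and no KO peak.

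Non-coding genes among the first 15 were Neat1, the RNA scaffold of paraspeckles, with 28.6 and 23.3 in WT and a KO G peak of 7.47, and Gm25346, a small nucleolar RNA gene, with 23.3, 18.8 and 5.2 respectively. The pseudogene 5430437J10Rik had 22.0 and 24.8, Gm4221 had 22.0 and 18.8, Gm26759 had 18.4 and 21.3, and Gm12703 had 15.8 and 21.8, all without a KO peak. Gm12703 had its region 3493 bp downstream of the nearest protein-coding start site, that of Jun, and its summit lay in an exon of Jun.

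**Figure D1:**
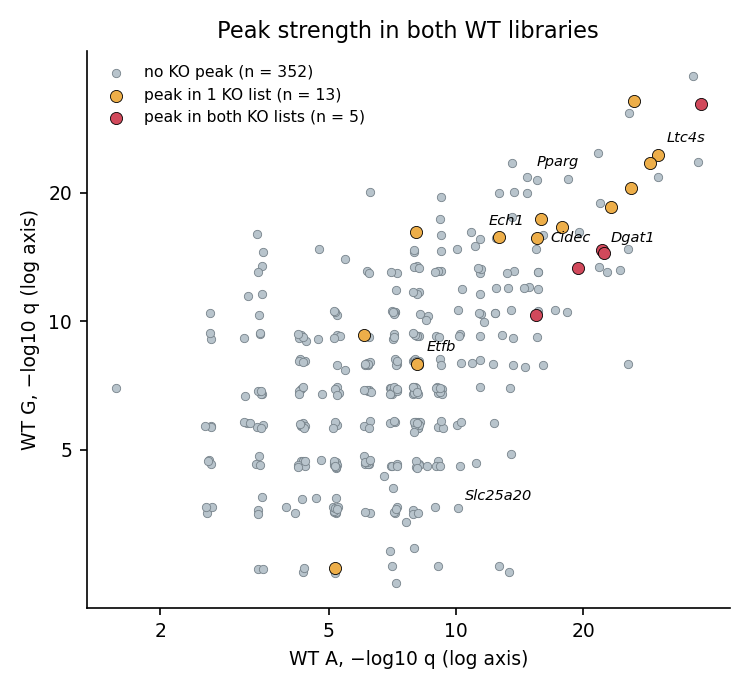
Each point is a promoter region, with its −log10 q in WT A on the horizontal log axis and in WT G on the vertical log axis, spread by a small random offset. Colours mark regions with a peak in 1 KO list (13), in both (5) or in neither (352), and 14 of the 18 with a KO peak are among the 74 strongest by summed rank.

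Over all 370 promoter regions, the median −log10 q was 7.14 in WT A (range 1.57 to 37.2) and 6.88 in WT G (2.45 to 38.1). Both medians lay below those of the other shared regions, 8.06 and 8.04. The median fold enrichment was 6.72 in WT A and 7.09 in WT G, and it was 6.73 and 7.64 at the other shared regions. The fold in WT A and in WT G was related across promoter regions (Pearson's r of log2 fold 0.555, Spearman's rho 0.466, n = 370), and a like value was found across the other shared regions (0.56 and 0.502, n = 3053). These points share their libraries and their chromatin, and the correlations are descriptions. The median width was 549 bp, and 314 of them (84.9%) consisted of 1 peak from each list.

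Of the 370 regions, 250 (67.6%, interval 62.5 to 72.3) had the start site of a protein-coding gene in reach, and are named by the nearest one in reach. A start site was in reach where its promoter window held the midpoint, and another could lie closer. The region of 4930579G24Rik lay at −891 bp from that start but at 509 bp from the start of Etfdh. Of the rest, named by their nearest start site in reach, 21 (5.68%) were at a small RNA gene and 99 (26.8%) at another non-coding gene such as a lincRNA or antisense transcript. In all, 402 genes of all types had a start site in reach, of which 261 were protein-coding. At 36 of the 250 coding regions (14.4%) the start was an internal one, over 1 kb from the most upstream start site of the gene. Pparg was one of these. Its region at chr6:115420570-115422278 had its midpoint at −642 bp from an internal start, with its summit in an intron. The 7 coding genes with more than 1 region were C130050O18Rik, Cidec, F10, Klf13, Mgst1, Nlrp3 and Oacyl. At the summit of the stronger WT peak, 186 regions (50.3%) were outside annotated transcripts, 132 (35.7%) were in an intron and 52 (14.1%) in an exon. The 120 regions of non-coding genes lay at a median of 15.1 kb from the nearest protein-coding start site, and 54 of them (45.0%) lay within 10 kb of one. No promoter region lay on chromosome X (0 of 370, with an exact upper limit of 0.992%), where 21 of the 3053 other shared regions (0.688%) and 4.32% of protein-coding genes were found.

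Within the window, regions gathered near the start site, taken here as the nearest in reach of any gene. From −200 to 100 bp there were 46.8 regions per 100 bp, against 33.3 between −500 and −200 bp and 25.8 between −1000 and −500 bp (141, 100 and 129 regions, negative values upstream). The median midpoint lay at −303 bp, at −266 bp for coding genes and at −448 bp for non-coding genes.

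**Figure D2:**
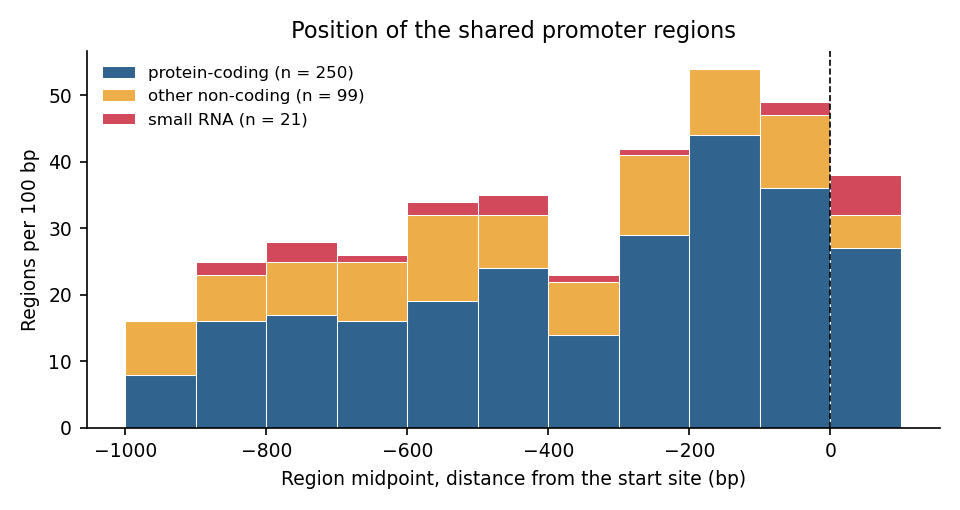
Region midpoints are counted in bins of 100 bp by their distance from the nearest start site in reach (dashed line at 0, negative values upstream), stacked by the type of the gene that names the region. The tallest bins lie within 200 bp upstream of the start site.

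Anti-RXRα peaks at promoters were compared between genotypes by their number in each list. WT A had 525 and WT G had 1514, while KO A had 8 and KO G had 19. WT averaged 1019.5 ± 699.3 (SD, n = 2) and KO 13.5 ± 7.78 (SD, n = 2). The ratio was 75.5, and pairs of single libraries gave ratios from 27.6 to 189.2. Over all peaks of the lists, 83 in KO A and 208 in KO G stood against the WT totals given above, a ratio of means of 49.9, so the fall was not limited to promoters. Promoter peaks made up 13.28% ± 3.15 of the WT peaks and 9.387% ± 0.356 of the KO peaks (SD, n = 2 each, exact permutation p = 0.333, two-sided). The KO shares rest on few peaks. The exact intervals of KO A (9.64%, 4.25 to 18.1) and KO G (9.13%, 5.59 to 13.9) held the 11.1% of WT A. Both WT lists lay above both KO lists, but an exact permutation test of 2 against 2 libraries cannot go below p = 0.333 (two-sided), and it gave that value. The genome-wide backgrounds, which scale with depth, of KO A (0.966 fragments) and KO G (0.936) lay between those of WT G (0.551) and WT A (1.25). Leaving WT G out lowered the ratio to 38.9, while leaving KO G out raised it to 127.4.

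Of the 370 promoter regions, 8 (2.16%) overlapped a KO A peak, 15 (4.05%) a KO G peak, 18 (4.86%, interval 2.91 to 7.58) a peak of either and 5 (1.35%) peaks of both. The same counts over all 3423 shared regions were 2.16% for KO A, 5.35% for KO G, 5.87% for either and 1.64% for both, and the interval for promoter regions held the share of the whole. Without KO G, the share with a KO peak was 2.16%. The 5 with peaks in both KO lists were Gm23935, Dgat1, Abi1, Cep120 and Gm34921.

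Dgat1, which encodes an enzyme of triglyceride synthesis, reached a −log10 q of 22.0 and 14.5 in the WT libraries A and G, and 8.48 and 7.47 in the KO libraries A and G (31, 16, 15 and 14 fragments). Abi1, a regulator of actin through the WAVE complex, had 22.0, 14.5, 6.15 and 3.28. The region of Cep120, a centrosomal protein gene, had 19.4, 13.2, 6.15 and 7.47, and the lincRNA gene Gm34921 had 15.8, 10.5, 7.3 and 4.15. The local background was at least 2-fold above the genome-wide level at 1 of the 18 regions with a KO peak, Gm23935, and at 13 of the other 352 (3.69%).

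KO peaks were found mainly where the WT peaks were strong. In quintiles of 74 regions by summed WT rank, the strongest first, 14 regions of the first had a KO peak (18.9%, interval 10.7 to 29.7), and the next ones had 2, 1, 0 and 1. The other shared regions at the same rank sums had a KO peak in 20.4%, 3.65%, 1.16%, 1.03% and 0.566% of cases. Among the 21 small RNA regions 5 had a KO peak (23.8%, interval 8.22 to 47.2), against 9 of 250 coding regions (3.6%, interval 1.66 to 6.72). The small RNA regions were also stronger, with a median −log10 q in WT A of 10.2 against 7.14 at coding genes, and all 5 with a KO peak were in the first quintile.

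**Figure D3:**
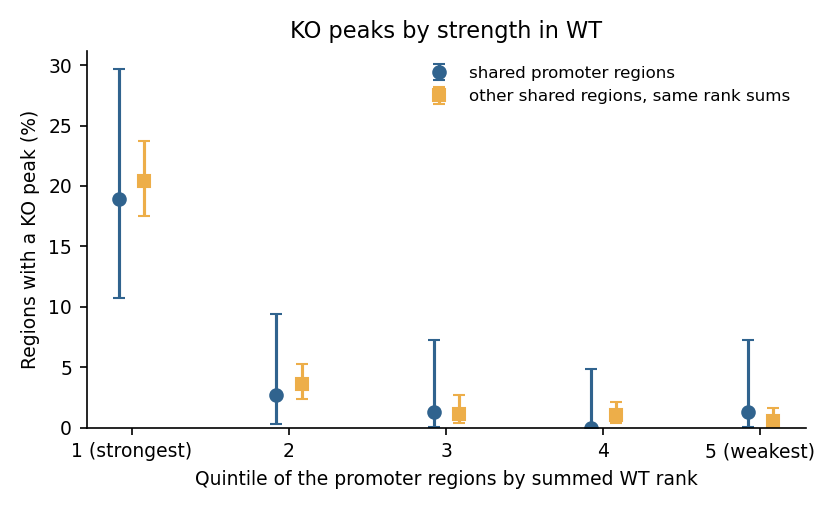
The share of regions with a peak in either KO list is shown for quintiles of the promoter regions by summed WT rank, with 95% exact binomial intervals, and for the other shared regions at the same rank sums. Both fall from about the same level in the first quintile (18.9% and 20.4%).

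The motif search covered 22 consensus sequences on both strands in the 101 bp around the summit. DR1 was AGGTCA and a second copy of it with 1 base between, allowing 2 mismatches. The half-site AGGTCA lies within the perfect form of every repeat, so these counts overlap. A DR1 was present in 20 of the 370 windows (5.41%, interval 3.33 to 8.22). It was present in 1.22% of windows 500 bp to either side of the same summits, in 1.15% of windows over all promoters at the same distances and gene types, and in 6.45% of the other shared regions (interval 5.61 to 7.38). No promoter region had a perfect DR1, 5 had 1 mismatch and 15 had 2, while 3 of the other shared regions had a perfect one. None of the 18 regions with a KO peak had a DR1 (0 of 18, with an exact upper limit of 18.5%), against 20 of the other 352 (5.68%). The same letters in reverse order, as a control, were found in 3 promoter regions (0.811%), against 1.35% to either side.

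Of the other repeats, DR5 was in 9 windows (2.43%, interval 1.12 to 4.57, against 0.676% to either side), all at coding genes and 1 of them, Dgat1, with peaks in both KO lists, and DR4 in 5 (1.35%, against 1.35%). The half-site was in 50 (13.5%, interval 10.2 to 17.4), against 7.03% to either side and 5.73% of all promoters. The letters read by PU.1, C/EBP and AP-1 were more frequent at the summit than to either side or in all promoters. AGGAAGT, read by PU.1, was in 35 (9.46%, against 1.49% to either side, 2.55% of all promoters and 10.9% of the other shared regions). TTGCNNAA, read by C/EBP factors, was in 34 (9.19%, against 3.24%, 3.91% and 11.2%), and TGANTCA, read by AP-1, in 30 (8.11%, against 2.7%, 2.55% and 7.44%). The intervals of promoter and other shared regions overlapped for all 3. TGTGGTT, read by RUNX factors, was in 13 (3.51%, interval 1.88 to 5.93, against 1.35% to either side and 1.99% of all promoters), below the 6.22% of the other shared regions (interval 5.39 to 7.14), and these intervals overlap. TTCNNNGAA, read by STAT factors, was in 11 (2.97%, interval 1.49 to 5.26), and that interval held the 2.57% to either side and the 2.94% of all promoters.

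Letters read by general promoter factors are given for SP and KLF and for NFY. GGGCGG, read by SP and KLF factors, was in 21 windows (5.68%, interval 3.55 to 8.55), against 7.3% to either side, 9.81% of all promoters and 1.51% of the other shared regions. CCAAT, read by NFY, was in 58 (15.7%, interval 12.1 to 19.8), against 11.8% to either side and 14.7% of all promoters. CpG observed over expected averaged 0.442 at the summit, against 0.359 over all promoters at the same distances and gene types and 0.251 at the other shared regions, and it was at least 0.6 in 28.4% of regions, against 24.5% and 9.14%.

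**Figure D4:**
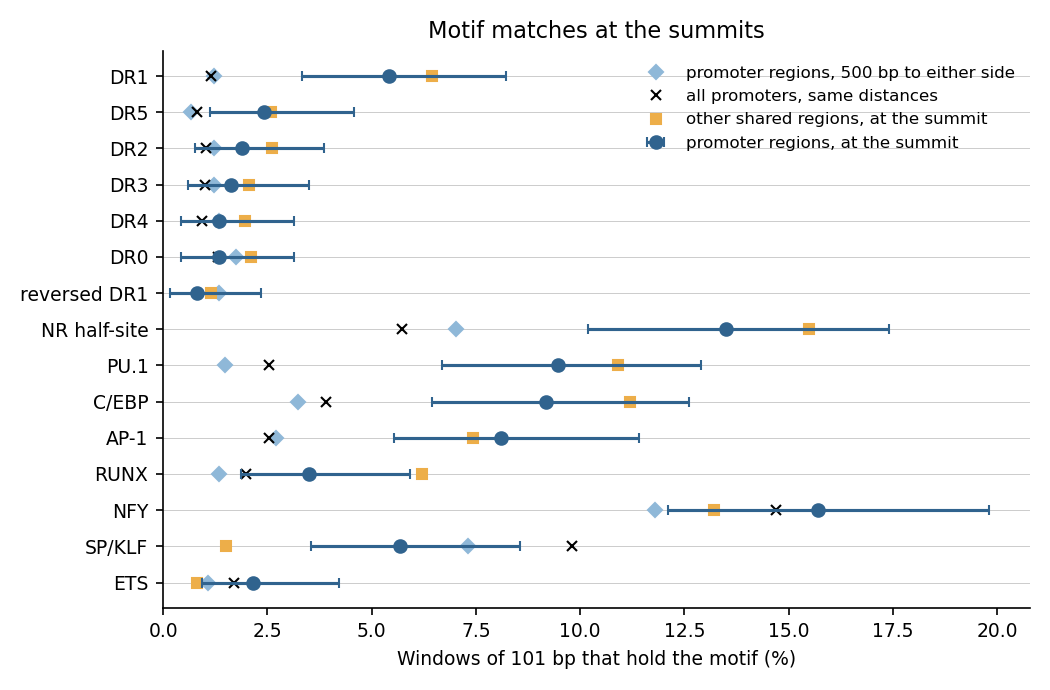
For each motif, the share of 101 bp windows with a match is shown at the summits of promoter regions (points, with 95% exact binomial intervals), 500 bp to either side of them, over all promoters at the same distances, and at the summits of the other shared regions. For DR1, DR5, the half-site, PU.1, C/EBP and AP-1 the interval at the summit lies above both the flanks and all promoters.

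Promoter peaks found in a single WT list had a higher median CpG than those in both. The 1141 promoter peaks that only WT G had showed a median CpG of 0.562, a DR1 in 1.4% and a median of 8 fragments, and no KO peak overlapped one of them. WT G peaks within shared regions had a median CpG of 0.404, a DR1 in 4.02% and a median of 11 fragments. The 95 promoter peaks of WT A alone had a median CpG of 0.498 and a DR1 in 5.26%, against 0.395 and 4.65% in the WT A peaks of shared regions, so there the DR1 share was not lower. No KO peak overlapped one of the 95 either. Over all 1514 promoter peaks of WT G the share with a DR1 was 2.05%. The part of depth in these differences was not tested.

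Genes were counted by 19 lists of pathways and cell types. Of all 21911 protein-coding genes, 1.19% had a start site in reach of a promoter region. Fatty acid oxidation genes had 7 of 33 (21.2%), where the share over all coding genes would give 0.393 genes. Regions were found at Ech1, Acot2, Eci2, Etfb, Acsl1, Slc25a20 and Etfa. Ech1, a dienoyl-CoA isomerase gene, reached 11.3 (WT A) and 15.9 (WT G) in −log10 q and had no KO peak. Acot2, an acyl-CoA thioesterase gene, had 8.06 and 8.04, and Eci2, an enoyl-CoA isomerase gene, 7.14 and 8.04, again with none in KO. Etfa and Etfb encode both subunits of the flavoprotein that takes electrons from acyl-CoA dehydrogenases. Etfb had 8.06 and 8.04 in WT and 6.31 in KO G, and Etfa had 4.15 and 3.61 and no KO peak. Slc25a20, the carnitine-acylcarnitine carrier gene, had 9.92 and 3.61, and Acsl1, a long-chain acyl-CoA synthetase gene, 6.16 and 4.84. Thus 1 of the 7 had a KO peak. By −log10 q, which depends on depth between lists, the WT values of Slc25a20 differed more between libraries than those of the others. By fold, Slc25a20 had 7.11 (WT A) and 5.16 (WT G), and Ech1 had 8.68 and 11.6.

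Known targets of RXR partners had 5 of 35 (14.3%), of which Ech1 and Slc25a20 were also counted above. The others were Lpcat3, Dhrs3 and Abca1, all without a KO peak. Lpcat3, an LXR target that remodels phospholipids, had 11.3 in WT A and 8.04 in WT G. Dhrs3, a retinaldehyde reductase gene known as a RAR target, had 8.06 and 9.26, and Abca1, the cholesterol exporter gene and an LXR target, had 8.06 and 4.64. Of lipid droplet and lipid handling genes, 2 of 28 (7.14%) had a region, Dgat1 and Cidec. Cidec, a lipid droplet protein gene, had a pair of regions, with 15.8 and 14.5 in WT A and WT G at chr6:113435666-113436740, and 5.22 and 9.26 at chr6:113434445-113435444.

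Of macrophage transcription factor genes, 6 of 35 (17.1%) had a region, none with a KO peak. Pparg had 14.7 in WT A and 21.8 in WT G. Cebpb had 10.2 and 14.5, Cebpa 6.16 and 8.04, Runx1 5.22 and 5.73, and Klf6 3.42 and 2.63. Klf13 had a pair of regions, at 8.06 and 6.88 and at 8.0 and 5.59. Among RXR and its partner receptor genes, 2 of 19 (10.5%) had a region, Pparg and the retinoic acid receptor gene Rara (5.22 in WT A and 4.64 in WT G). Of the 19 orphan and other nuclear receptor genes none had one, where the share over all coding genes would give 0.226. The nuclear receptor gene Nr4a1 had promoter peaks in WT A (−log10 q 3.43) and WT G (5.73) that made up no promoter region. Neither Rxra nor Rxrb had a promoter peak in any of the 4 lists. Itgax, which encodes CD11c, had 2 promoter peaks in WT G (best −log10 q 5.73) and none in the other lists.

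**Figure D5:**
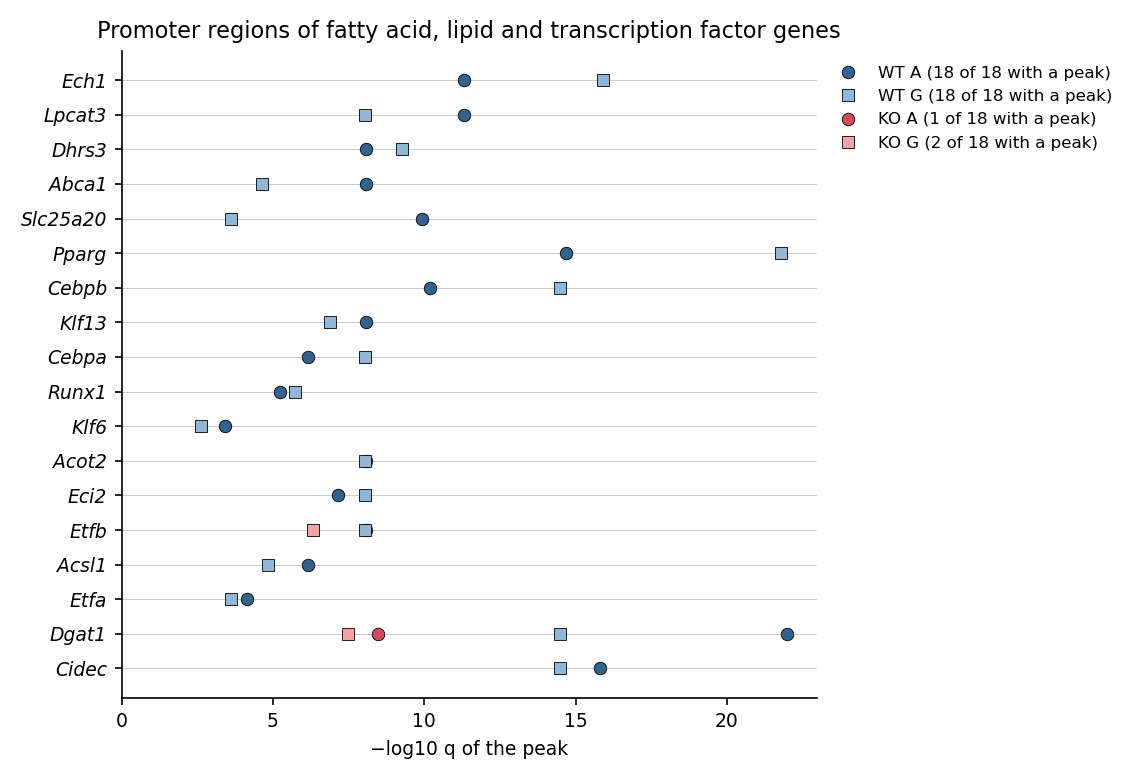
The −log10 q in the 4 lists is shown for the genes of the fatty acid oxidation, lipid, partner target and macrophage transcription factor lists with a promoter region, each by its region of smallest rank sum. All 18 have a WT A and a WT G peak, which is how they were chosen, 1 has a KO A peak (Dgat1) and 2 have a KO G peak (Dgat1 and Etfb).

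Immediate early and stress genes had 5 of 39 (12.8%): Junb (11.3 in WT A and 13.2 in WT G), Fos, Ddit3, Jund and Hspa5. Lysosome genes had 3 of 35 (8.57%), the progranulin gene Grn, the cathepsin gene Ctsz and the proton pump subunit gene Atp6v0d2. Cytokine, chemokine and NF-kB genes had 2 of 34 (5.88%), with Cxcl2, a neutrophil chemoattractant gene (8.06 and 14.5), and Tnfaip3, an inhibitor of NF-kB signalling (5.22 and 3.61). Cell cycle genes had 1 of 32 (Cdk4), ribosomal protein genes 3 of 83 (3.61%), respiratory chain and ATP synthase genes 1 of 80 (1.25%) and histone genes 1 of 80. The share over all coding genes would give 0.381, 0.989, 0.953 and 0.953 genes in these lists. No circadian clock gene (of 17), cytoskeleton and adhesion gene (of 37) or proteasome gene (of 39) had a region. There the same share would give 0.203, 0.441 and 0.465 genes, so finding none is near that share. The clock gene Per1 had promoter peaks in WT A (best −log10 q 3.43) and WT G (5.73) that made up no promoter region.

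Of lists of cell identity, AM genes had 2 of 30 (6.67%, Cidec and Atp6v0d2), where the share over all coding genes would give 0.357 genes. Genes of monocytes and other macrophages had 0 of 20, where that share would give 0.238. Genes of other lung and blood cells had 1 of 30, where it would give 0.357, the club cell gene Scgb1a1 (4.31 in WT A, 8.04 in WT G). With counts this small, these lists cannot be told apart. Peaks of a DNA-binding protein do not measure expression, so the labelled cell type could not be checked from these lists against its markers.

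Start sites of a coding pair within 1 kb on opposite strands were shared by 10 of the 250 coding regions (4.0%). Ordered by rank sum, the first were Btf3l4 with Txndc12 (12.8 and 15.9 in the WT libraries, 5.61 in KO A), Urod with Hectd3 (9.11 and 8.04), Nhlrc3 with Proser1 (8.06 and 8.04), Tom1l2 with Drc3 (6.16 and 9.26) and Bckdha with Exosc5 (6.16 and 8.04). Of the 10, Btf3l4 with Txndc12 and Nudt6 with Spata5 (4.15 in KO G) had a KO peak.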

How the data were processed

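RXRα HT-ChIPmentation libraries of sorted AMs (WT A, WT G, KO A, KO G) and 1 input make up the 5 samples, and groups were taken from the labels. The authors used Cutadapt 1.7.1 for trimming, Bowtie2 for alignment (mm10) and samtools 0.1.18 to keep properly paired reads without duplicates, and called the peaks of each library on its own against the input (MACS3 3.0.0a5, q threshold 0.05). The deposited fold enrichment, a ratio, sets the pileup over the local background, with the same constant added to both. The deposited −log10 q and −log10 p belong to the summit, and the deposited score, −log10 q times 10 cut to a whole number, was not used further. Read counts are not part of the deposited values, and genotypes were therefore compared by peaks.

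Lists were merged in Python 3.11.15 (numpy 2.4.6, scipy 1.17.1, pysam 0.24.0, matplotlib 3.10.9). Summit fragments were solved as whole numbers from fold and −log10 p, which explained the −log10 p within 0.012 for every peak, with a ChIP scale of 0.884 in WT A and 1 in the others. Motif windows were read from GRCm38. All promoters were 101 bp windows at fixed distances from the most upstream start of every gene, averaged at the distances and gene types of the regions. Intervals are exact binomial (Clopper-Pearson) and cover counting error only. Merging, fragments and motif search were tested on simulated data. Genes were named by rule: the 15 smallest rank sums, regions with KO peaks (both lists, and the 5 strongest with 1), up to 4 by rank sum in each list, up to 8 with the fewest DR1 mismatches, Rxra, Rxrb and Itgax, and up to 5 coding pairs; further genes of the lists and the isolated examples were chosen with their values seen. Members and lists were chosen with earlier results of these data known. A gene left out of the lists is not reported here.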

Additional observations from a re-analysis of the deposited data

How the results depend on the processing

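The number of regions stayed within 1.5 times the 370 under stricter overlap or q, an equal list length, 500 bp on each side of a start site, coding start sites, and summit positions. It was 1041 within 3 kb on each side of a start site, and 525 to 1514 when 1 WT list was used alone. The comprehensive GENCODE set, an alternative chosen after seeing the data, gave 467 regions. The share with a KO peak was 1.19% to 4.05% when 1 library was left out, and the share with a DR1 2.05% to 4.76%. The DR1 share was 10% with 100 bp on each side of the summit, 1.35% with at most 1 mismatch and 17.6% with at most 3, so its level is set by these choices. The WT to KO ratio of promoter peaks stayed above 1 throughout, at 38.9 to 127.4 when 1 library was left out. With the letters A and G taken as pairs (replicate block) it was 72.3, from 65.6 for A and 79.7 for G; the labels do not say that letters pair libraries. Of 50 alternatives, 8 moved a count by over 1.5 times or a share beyond its 95% interval; the ratio was judged by its direction alone. The 2 libraries per group, and 6 to 36 fragments at a WT G summit, limit the precision.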

Other observations

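Of the genes with more than 1 promoter region, 3 are described here, chosen after their values were seen. Nlrp3, which encodes the sensor of an inflammasome, had regions at chr11:59542148-59543024 (−log10 q of 13.5 and 11.8 in the WT libraries A and G) and chr11:59541075-59541976 (7.14 and 6.88). Mgst1, a microsomal glutathione transferase gene, had regions at chr6:138140757-138141847 (12.4 and 15.9) and chr6:138139890-138140505 (15.8 and 8.04). F10, the gene of coagulation factor X, had regions at chr8:13037022-13037464 (8.06 and 8.04) and chr8:13036446-13036816 (6.16 and 8.04). None of these 6 regions had a peak in a KO list, and none held a DR1.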
